A study of Mus musculus with 2 samples.

Results

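The genes described here encode the protein subunits of the mitochondrial respiratory chain and of the ATP synthase. They were chosen by symbol in single-cell RNA-seq of mouse embryos at E7, the stage of gastrulation. A gene was taken when its symbol named a subunit of complex I (Nduf), II (Sdh), III (Uqcr and mt-Cytb), IV (Cox and mt-Co) or V (Atp5 and mt-Atp), and pseudogenes were dropped. This rule found 96 of the 32285 features in the deposited matrices, of which 83 are nuclear genes and 13 lie in the mitochondrial genome (mt-encoded). The nuclear members comprised 36 genes of complex I, 4 of complex II, 8 of complex III, 18 of complex IV and 17 of complex V. The mt-encoded members comprised 7 genes of complex I, 1 of complex III, 3 of complex IV and 2 of complex V. Expression did not enter the rule, but no other mt- gene was in the matrices, so a filter on the mitochondrial share of a cell reads these same 13 genes. Cyc1 and Ndufab1, which also encode chain subunits, fell outside the symbols and were looked at separately. Ndufa4 was counted with complex I by its symbol, although its protein is known as a subunit of complex IV.

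As background, complexes I and II pass electrons from NADH and succinate to ubiquinone, complex III passes them on to cytochrome c, and complex IV passes them to oxygen. Complexes I, III and IV pump protons, and complex V, the ATP synthase, uses the gradient to make ATP. Complex II is encoded wholly in the nucleus, while the other complexes are assembled from subunits of both genomes. The visceral endoderm is an absorptive epithelium that surrounds the embryo before the yolk sac circulation is established and secretes apolipoproteins and transport proteins.

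The series held 1 library per genotype. The control library pooled 4 embryos and the Yap1 cKO library pooled 3. Per the series' own description, controls were Sox2-Cre:Yap1 fl/+ and the cKO embryos Sox2-Cre:Yap1 fl/fl, so that both carried Sox2-Cre. The sample labels call the control WT, and another passage of the study's methods describes controls without Cre, so the control genotype is not stated uniformly. Sox2-Cre recombines in the epiblast and its derivatives, not in the visceral endoderm or trophoblast. The study adds that Yap1 fl/fl embryos are likely heterozygous for Yap1 in extraembryonic tissues, through deletion of the allele from the father. The labels give both samples as female. Pooling removed the embryo as a unit, so genotypes could be compared only as 1 library against 1 library.

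The matrices held 1829 control and 1897 cKO barcodes with 70573418 and 87937858 UMIs (unique molecular identifiers, counted mRNA molecules). Barcodes with at least 5000 genes numbered 791 and 864. After removal of 4 and 19 doublets, 787 control and 845 cKO cells remained, with medians of 75634 and 79623 UMIs. No cell exceeded 10% mt-encoded UMIs. The libraries shared 2 barcodes, and 0 of them among the kept cells. Cells carrying Y-linked transcripts made up 51.7% of control and 15.9% of cKO cells, against the female label, so sex and genotype cannot be fully told apart. Yap1 stood at 30.0 UMIs per 1000000 UMIs of its population (CPM; 95% exact Poisson interval 28.3–31.7) in the pooled embryonic cells of the control library and at 1.72 CPM (1.37–2.13) in those of the cKO library. In trophoblast-like cells the levels were 24.9 (22.5–27.3) and 18.5 CPM (16.2–21.1), control first. In endoderm-like cells they were 32.4 (28.3–37.0) and 26.6 CPM (24.3–29.2), so Yap1 was present but lower in the cKO library in both. All intervals on sums cover counting error only.

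Cells were assigned to populations by summed marker levels that contained no respiratory chain gene. The visceral endoderm-like population (markers such as Ttr, Afp and Apoa1) held 93 control and 220 cKO cells. The trophoblast-like population (markers such as Elf5 and Rhox6) held 179 and 100 cells. The 6 embryonic populations were epiblast-like (242 and 206 cells), primitive streak-like (62 and 120), nascent mesoderm-like (81 and 91), Foxf1 and Hand1 mesoderm-like (60 and 35), blood and endothelial progenitor-like (33 and 38) and node and axial-like cells (31 and 28). The endoderm markers summed to 16840 and 17325 CPM in the endoderm-like cells and to 5.55–22.4 CPM in every other population. The endoderm gate required at least 1500 CPM of these markers and all other gates under 200 CPM, so this separation was set by the gates. Trophoblast-like cells held 1114 and 957 CPM of trophoblast markers and also 1569 and 1451 CPM of epiblast markers. UMIs of a population were summed within each library, and populations were compared over the 2 libraries. A p-value therefore rests on how unevenly the populations differ between 2 libraries of different genotype, after the mean difference between libraries is taken out. For each gene this spread was estimated once over all 8 populations, with 7 residual degrees of freedom. It was also drawn toward the spread of other genes (median prior degrees of freedom 11.7). The spread between embryos and the spread among the 6 embryonic populations do not enter it.

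The promoters and the mitochondrial map of the members are shown first, as the landmarks for the values that follow. Of the 83 nuclear members, 67 had a 300-base window around the RefSeq start (GRCm38.p6, 250 bases before the start and 50 after it). The letters TCAAGGTCA, bound by estrogen-related receptors (ERR), occurred on either strand in 2 member windows (2.99%), those of Atp5g3 and Sdhd, and in 0.4% of all 27025 windows. The palindromic NRF1 motif occurred in 5 member windows (7.46%) and in 0.973% of all windows. The ETS letters CCGGAAGT, to which GABP binds, occurred in 7.46% of member windows and 4.01% of all, and the YY1 letters AAGATGGCG in 8.96% and 1.49%. The letters TATAAA stood in 11.9% and 14.2%. These matches describe the windows only, and none is shown to be bound. The 250 bases before the start are printed for 3 members that, among those with a window, led their complex in the endoderm-like cells below, with ETS or ERR letters in capitals where the stretch holds any. In Uqcr11 the ETS letters began at position -66 from the start, and in Atp5g3 the ERR letters lay on the opposite strand from position -52. The Cox7a1 stretch held none of the searched letters and is shown because this gene had the largest positive difference of all nuclear members. Ndufb11 and Sdhd, which led complexes I and II, also held none in their 250 bases and are not printed. The ERR letters of Sdhd lay after its start.
Uqcr11 (chr10:80406822-80407071, minus strand): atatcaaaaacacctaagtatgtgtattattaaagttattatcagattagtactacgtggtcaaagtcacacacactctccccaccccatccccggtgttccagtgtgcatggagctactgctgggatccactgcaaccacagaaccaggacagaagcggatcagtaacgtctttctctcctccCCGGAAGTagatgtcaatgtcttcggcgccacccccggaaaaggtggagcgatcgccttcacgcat
Atp5g3 (chr2:73911327-73911576, minus strand): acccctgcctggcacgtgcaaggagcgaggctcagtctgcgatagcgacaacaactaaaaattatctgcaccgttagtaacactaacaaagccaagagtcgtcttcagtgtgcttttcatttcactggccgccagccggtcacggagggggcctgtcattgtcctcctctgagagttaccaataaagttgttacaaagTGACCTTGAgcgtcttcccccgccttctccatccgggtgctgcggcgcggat
Cox7a1 (chr7:30183921-30184170, plus strand): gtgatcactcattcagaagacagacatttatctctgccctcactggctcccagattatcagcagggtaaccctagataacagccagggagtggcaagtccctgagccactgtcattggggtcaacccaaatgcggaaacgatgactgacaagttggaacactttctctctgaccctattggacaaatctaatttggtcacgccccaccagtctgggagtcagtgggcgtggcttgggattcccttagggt

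The 13 mt-encoded members lie close together on the mitochondrial chromosome, and 12 are transcribed from the same strand. Only mt-Nd6 (chrM:13552-14070) lies on the other strand. It overlaps the end of mt-Nd5 by 14 bases. mt-Atp8 and mt-Atp6, which encode subunits of the ATP synthase, share 43 bases, and mt-Nd4l and mt-Nd4 share 7. The shared stretch of mt-Atp8 and mt-Atp6 is printed because both genes share a transcript and the genotype values of mt-Atp8 and mt-Atp6 are set side by side further on. Reads that fall within a stretch shared by genes of the same strand cannot be told apart by gene.
mt-Atp8 and mt-Atp6 overlap (chrM:7927-7969, plus strand): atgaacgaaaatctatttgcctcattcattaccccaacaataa

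Summed over all members, the endoderm-like cells had the highest level of both genomes in both libraries. The 83 nuclear members together reached 33317 CPM in control and 34931 CPM in cKO endoderm-like cells. In the 6 embryonic populations they lay between 26703 and 28000 CPM in control and between 28603 and 29613 CPM in cKO, and in trophoblast-like cells at 28877 and 30876 CPM. The endoderm-like sum was thus 1.22 times the pooled embryonic sum in control and 1.20 times in cKO. The 13 mt-encoded members showed a wider gap. Their sum was 14955 and 16796 CPM in endoderm-like cells, 7102–8114 and 6632–8154 CPM in the embryonic populations, and 8870 and 7905 CPM in trophoblast-like cells. These were 1.93 and 2.23 times the pooled embryonic level and 1.69 and 2.12 times the trophoblast-like level. Counted per cell rather than as CPM, the nuclear sum of endoderm-like cells was 1.11 and 1.04 times the embryonic sum but 0.879 and 0.756 times the trophoblast-like sum, whereas the mt-encoded sum stayed above both.

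**Figure D1:**
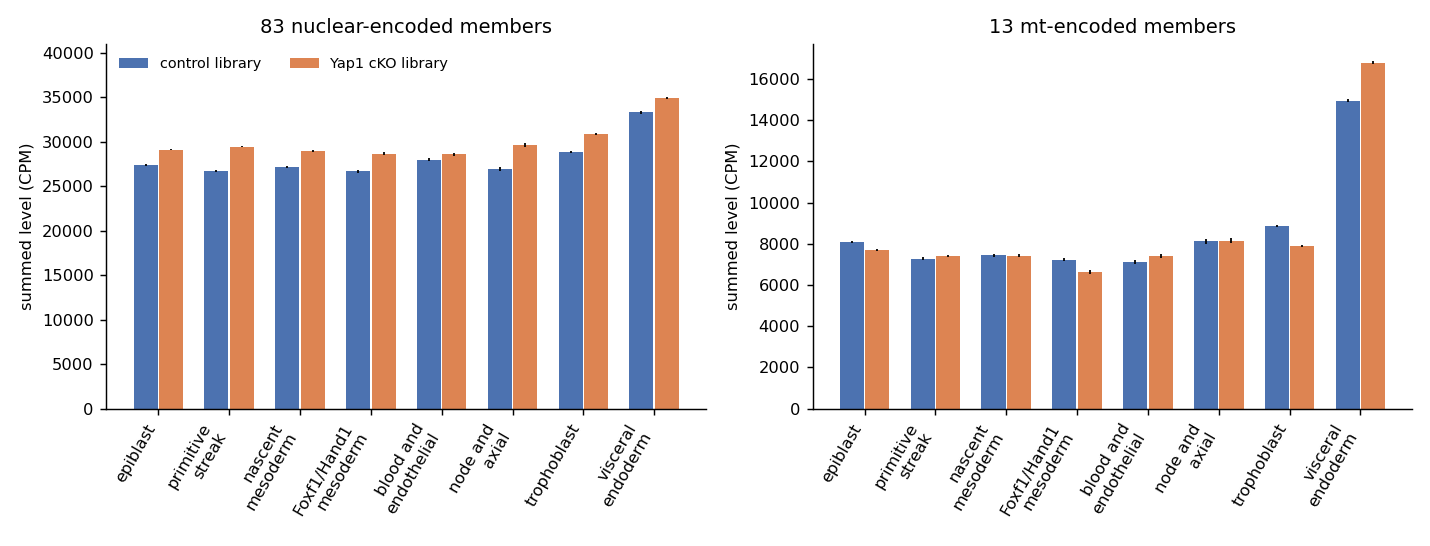
Summed level of the nuclear (left) and mt-encoded (right) respiratory chain genes in CPM, by population, with 1 bar per library and exact 95% Poisson intervals. The endoderm-like bars stand highest in both panels, at 33317 and 34931 CPM (nuclear) and 14955 and 16796 CPM (mt-encoded). Per cell instead of CPM, the nuclear sum of endoderm-like cells falls below that of trophoblast-like cells.

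The ratio of mt-encoded to nuclear UMIs does not depend on the scaling to all UMIs. It was 0.449 (95% exact interval 0.446–0.452) in control and 0.481 (0.479–0.483) in cKO endoderm-like cells. In the 12 embryonic values, 6 populations in each library, it ran from 0.231 to 0.301. Trophoblast-like cells had 0.307 (0.305–0.309) and 0.256 (0.254–0.258). The endoderm-like ratios lay above all others in both libraries.

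The same gap was seen cell by cell. The median mt-encoded share was 1.44% of a cell's UMIs in control and 1.58% in cKO endoderm-like cells, against 0.758% and 0.741% in embryonic and 0.884% and 0.831% in trophoblast-like cells. In control, 88 of 93 endoderm-like cells (94.6%, exact 95% interval 87.9–98.2) exceeded the upper quartile of the embryonic cells of their library. In cKO this held for 205 of 220 (93.2%, 89.0–96.1). Both intervals treat the cells of 1 pooled library as independent, so they do not cover the spread between embryos or libraries. Endoderm-like cells with high levels of anterior visceral endoderm markers (Cer1, Hhex and others; 17 control and 20 cKO cells) had medians of 1.32% and 1.51%, beside 1.53% and 1.60% in the other endoderm-like cells. Endoderm-like cells held fewer UMIs, with medians of 71598 and 73714 and means of 72262 and 80519, against medians of 74155 and 79598 and means of 79810 and 93231 in embryonic cells. The level of cytosolic ribosomal protein genes was lower in the endoderm-like cells, at medians of 175576 and 173062 CPM against 228246 and 225000 CPM. These genes were left out only in the fit described below, which then had 68 members called higher and medians of 0.42 and 1.23. The scaling of that fit rests on the ratios of most genes, so it depends little on these. Their part in the CPM sums was not tested.

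**Figure D2:**
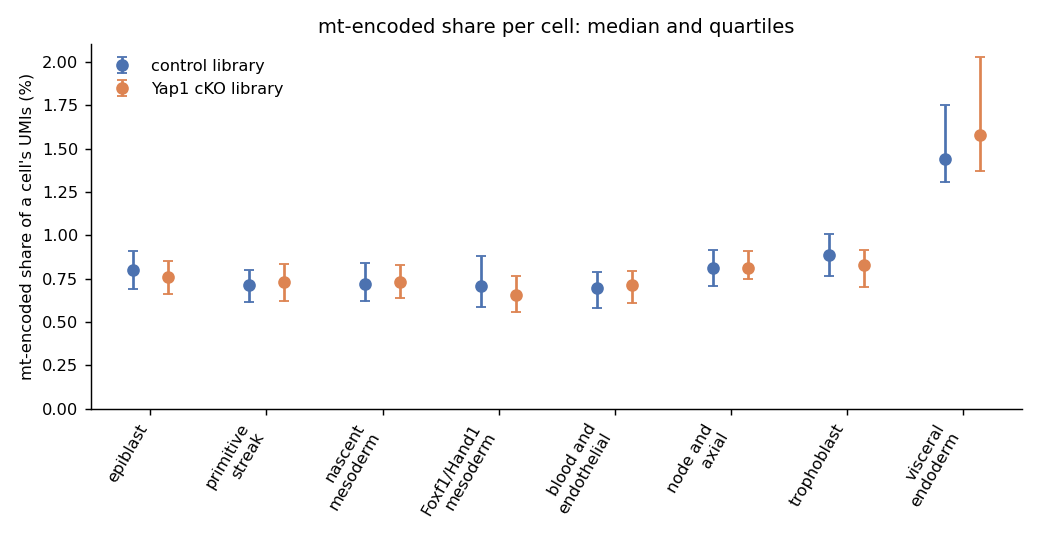
Share of each cell's UMIs that came from the 13 mt-encoded genes, in percent, by population and library. Points are medians over cells and bars the quartiles. The endoderm-like medians of 1.44% and 1.58% lie above the embryonic medians of 0.758% and 0.741% and the trophoblast-like medians of 0.884% and 0.831%.

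To ask which members differed between the endoderm-like cells and the embryonic lineages, all 14608 genes that passed the filter on low counts were fitted together with edgeR's quasi-likelihood test. The fit scaled the sums by TMM, a trimmed mean of gene ratios, whereas the printed CPM are shares of all UMIs. The 2 scales differ, so some members called higher had CPM near the embryonic values. Uqcrb was called higher (0.13 ± 0.06) at 581–618 CPM, beside an embryonic median of 600 CPM. Calls on the scale of all UMIs were not tested. Of the 96 members 92 passed this filter. Cox6a2, Cox7b2, Cox8b and Cox8c did not. In the endoderm-like cells 70 of the 92 members were higher at a Benjamini-Hochberg adjusted p under 0.05, 5 were lower and 17 were not called. Among all genes 36.3% were higher and 33.3% lower. The median log2 difference was 0.47 over the members and -0.02 over all genes. Members are abundant transcripts, so the 4700 genes with a mean log2 CPM of at least 5 were looked at alone. There 40.6% of genes were higher and 37.5% lower, while of 88 members 68 were higher and 3 lower. In 55 of the 92 members both endoderm-like values exceeded all 12 embryonic values, and in 5 both lay below. For all genes these shares were 21.3% and 24.8%. Counted as UMIs per cell, 43 members were higher and 15 lower, beside 26.3% and 43.2% of all genes, and the median over all genes moved from -0.02 to -0.30. Relative to that median, the nuclear members stood at 0.43 on the main scale and 0.44 per cell. The mt-encoded members stood at 1.24 relative to it on the main scale. A change of scale shifts all genes of a contrast nearly alike, so the 2 nuclear values had to agree. Per cell 12 of 13 mt-encoded members were still called higher.

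All 13 mt-encoded members were higher in the endoderm-like cells, with a median log2 difference of 1.23. mt-Nd4l, a membrane subunit of complex I, differed most of these. Its level was 1117 CPM in control and 1034 CPM in cKO endoderm-like cells, against 291–543 CPM in the embryonic populations, with a log2 difference of 1.60 ± 0.06 (SE; edgeR adjusted p = 8.7e-15). No embryonic value reached the endoderm-like values. mt-Co2, the subunit of complex IV that receives electrons from cytochrome c, stood at 2547 and 3146 CPM against 1097–1314 CPM, a log2 difference of 1.41 ± 0.06. The remaining complex IV genes, mt-Co3 and mt-Co1, differed by 1.36 ± 0.08 and 1.04 ± 0.07. Among the complex I genes, mt-Nd4 differed by 1.37 ± 0.06, mt-Nd2 by 1.33 ± 0.06, mt-Nd3 by 1.27 ± 0.06, mt-Nd1 by 1.23 ± 0.07 and mt-Nd5 by 1.10 ± 0.06. The genes of these subunits thus spanned a narrow range. mt-Cytb, the cytochrome b of complex III, differed by 1.16 ± 0.05, and mt-Atp8 and mt-Atp6 of complex V by 1.02 ± 0.07 and 1.01 ± 0.05. The exception was mt-Nd6, the gene on the other strand. It had the fewest UMIs of the mt-encoded members, 3388 over all gated cells, and how well each of these transcripts was captured was not tested. mt-Nd6 stood at 28.4 and 26.8 CPM in endoderm-like cells, inside the embryonic range of 14.6–42.5 CPM. Its level was highest in the Foxf1 and Hand1 mesoderm-like cells, at 42.5 and 37.2 CPM. Its log2 difference was 0.45 ± 0.12 (edgeR adjusted p = 0.0023), and it was no longer called when UMIs were counted per cell (0.15, adjusted p = 0.34).

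Among the 79 nuclear members tested, 57 were higher, 5 lower and 17 not called, with a median log2 difference of 0.42. The figure of all member differences orders them by complex.

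**Figure D3:**
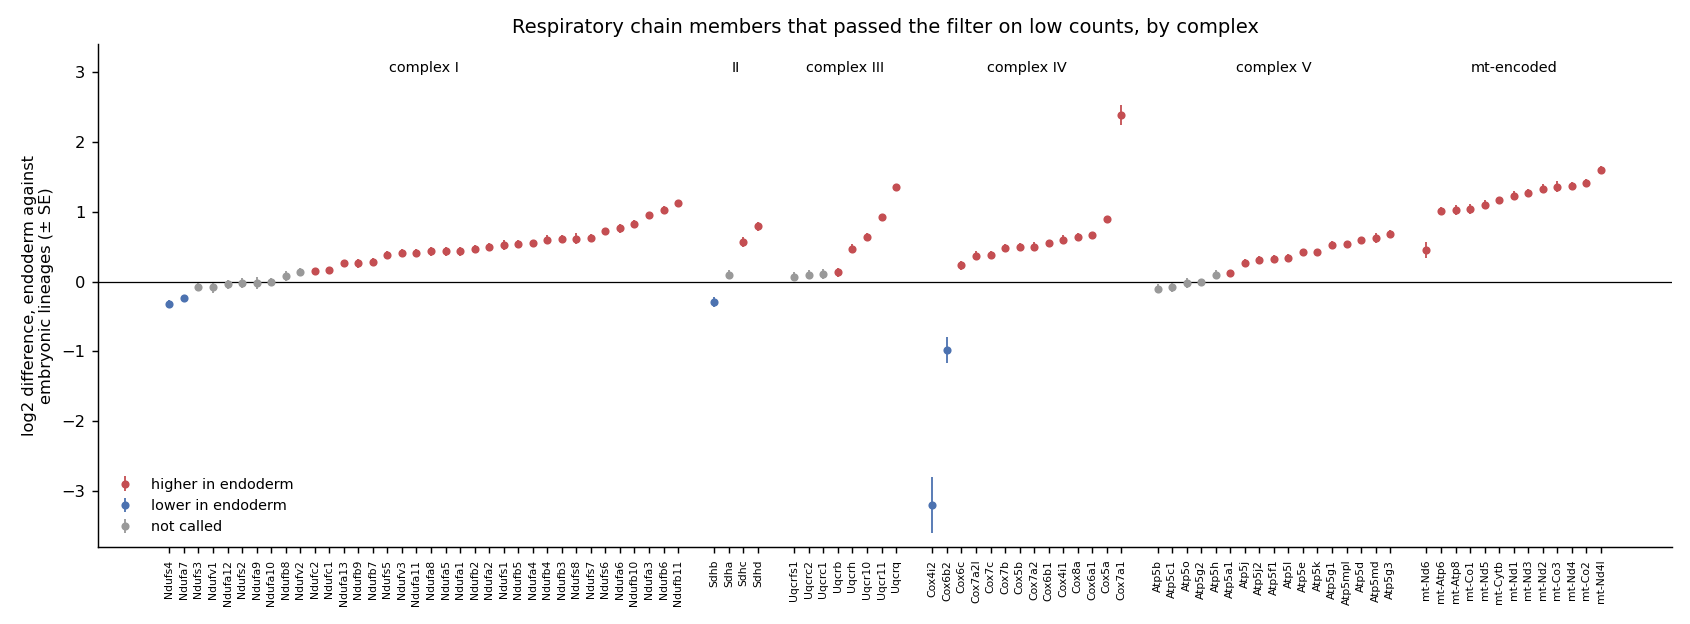
Log2 difference of endoderm-like cells against the embryonic populations for each member tested, grouped by complex and genome. Values are from the main fit with TMM scaling, with bars of 1 SE and colours for higher, lower and not called. The mt-encoded genes lie between 0.45 and 1.60, and 64 of the 79 nuclear genes lie above 0, with Cox7a1 (2.38) above and Cox4i2 (-3.20) below.

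In complex I, 26 of 36 nuclear genes were higher and 2 lower, with a median of 0.42. Ndufb11 (chrX:20615326-20617619, minus strand, mm10), an accessory subunit of the membrane arm, led with 382 CPM in control and 404 CPM in cKO endoderm-like cells against 148–273 CPM in the embryonic populations. The log2 difference was 1.12 ± 0.05 (edgeR adjusted p = 1.6e-13). Its embryonic levels were themselves uneven, from 148 and 167 CPM in epiblast-like to 257 and 273 CPM in blood and endothelial progenitor-like cells. Ndufb6, another membrane arm subunit, stood at 268 and 295 CPM against 133–177 CPM, a log2 difference of 1.02 ± 0.06. At the other end, Ndufs4, an accessory subunit needed for stable assembly, was lower at 166 and 159 CPM against 188–270 CPM, a log2 difference of -0.32 ± 0.06 (adjusted p = 6.9e-05). Ndufa7 was lower at 371 and 387 CPM against 427–547 CPM, a log2 difference of -0.24 ± 0.05 (adjusted p = 0.00043). Both stood below every embryonic value. The 7 nuclear core subunits, which carry the redox centres, had 3 higher and 0 lower with a median of 0.14. Their summed CPM was 1.17 times the pooled embryonic sum in control and 1.02 times in cKO. Of the 29 accessory genes 23 were higher and 2 lower, with a median of 0.43, and their sum was 1.23 and 1.20 times the embryonic. Among all genes 36.3% were higher and 33.3% lower, so the core count of higher genes was not far from that share.

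Complex II was split. Sdhd and Sdhc encode the membrane anchors and were higher, while Sdhb encodes the iron-sulfur subunit and was lower. Sdhd stood at 213 and 243 CPM against 131–159 CPM (log2 difference 0.79 ± 0.06, edgeR adjusted p = 2.4e-10). Sdhc stood at 49.6 and 59.4 CPM against 32.8–50.2 CPM (0.57 ± 0.07, adjusted p = 5.6e-07), with ranges that touch. Sdhb stood at 104 and 94.1 CPM against 114–154 CPM (-0.29 ± 0.07, adjusted p = 0.00089). Sdha, the flavoprotein that oxidises succinate, stood at 84.1 and 82.9 CPM within the embryonic 72.9–101 CPM (0.10 ± 0.06, adjusted p = 0.17).

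In complex III, 5 of 8 nuclear genes were higher and 0 lower. Uqcrq (chr11:53427922-53430831, minus strand), a small membrane subunit, had the smallest p-value of the nuclear members named here. Its level was 800 CPM in control and 856 CPM in cKO endoderm-like cells, against 313–418 CPM in the embryonic populations and 390 and 421 CPM in trophoblast-like cells. The log2 difference from the embryonic populations was 1.35 ± 0.05 (edgeR adjusted p = 1.4e-14). Both endoderm-like values were far above all others. Uqcr11, also a small subunit, stood at 615 and 672 CPM against 347–407 CPM (0.92 ± 0.05). The Rieske iron-sulfur protein gene Uqcrfs1 (0.07 ± 0.06) and the core protein gene Uqcrc2 (0.10 ± 0.07) were not called. Cyc1, the cytochrome c1 gene outside the symbol rule, differed by 0.18 ± 0.06 (adjusted p = 0.016).

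In complex IV, 12 of the 14 nuclear genes tested were higher and 2 lower, with a median of 0.50. Cox5a, a subunit on the matrix side, was higher at 1228 and 1360 CPM against 679–850 CPM (log2 difference 0.89 ± 0.05). The widest differences belonged to subunits that exist as tissue isoforms. Cox7a1, known as the isoform of heart and skeletal muscle, stood at 29.2 CPM (95% interval 25.2–33.5) in control and 22.9 CPM (20.7–25.2) in cKO endoderm-like cells. In the embryonic populations it ran from 3.07 to 8.24 CPM, and in trophoblast-like cells it was 4.83 and 4.57 CPM. Its log2 difference was 2.38 ± 0.14 against the embryonic populations (edgeR adjusted p = 8.4e-12) and 2.46 ± 0.19 against trophoblast-like cells. The broadly expressed isoform gene Cox7a2 remained far more abundant in UMIs and differed by 0.50 ± 0.06, and Cox7a2l, which encodes a supercomplex assembly factor, by 0.37 ± 0.06.

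Cox4i2 (chr2:152754173-152765037, plus strand), the lung isoform of subunit IV, which is known to respond to oxygen, showed the opposite pattern. Only 5 and 9 UMIs were counted in the endoderm-like cells, 0.744 and 0.508 CPM. In the trophoblast-like cells 8 and 13 UMIs gave 0.471 and 1.08 CPM. Its levels were highest in the Foxf1 and Hand1 mesoderm-like cells (23.1 and 33.0 CPM) and the blood and endothelial progenitor-like cells (17.5 and 30.7 CPM). Nascent mesoderm-like cells had 5.81 and 7.88 CPM, and epiblast-like cells 2.15 and 3.37 CPM. The difference of endoderm-like from embryonic populations was -3.20 ± 0.40 on the log2 scale (edgeR adjusted p = 6.9e-07). The embryonic side of this contrast was uneven, since node and axial-like cells had 0 and 5 UMIs, the former with an exact upper bound of 1.49 CPM. Its ubiquitous partner Cox4i1 was higher in endoderm-like cells, at 667 and 634 CPM against 406–537 CPM (0.60 ± 0.06). Ndufa4l2, a gene outside the symbol rule that is known as a hypoxia-induced relative of Ndufa4, was laid out in much the same way. It stood at 23.1 and 52.2 CPM in the Foxf1 and Hand1 mesoderm-like cells, at 28.6 and 44.1 CPM in the blood and endothelial progenitor-like cells, and at 1.04 and 1.19 CPM in the endoderm-like cells.

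Cox6b2, known as the testis isoform of subunit VIb, was lower in endoderm-like cells at 7.74 and 5.19 CPM against 7.05–23.9 CPM (-0.98 ± 0.19, edgeR adjusted p = 0.00013), with overlapping ranges. The somatic isoform genes Cox6b1 (0.55 ± 0.05), Cox6a1 (0.66 ± 0.05), Cox7b (0.48 ± 0.05) and Cox8a (0.64 ± 0.06) were higher. Of the muscle and testis isoform genes that failed the filter, Cox6a2 had 0 UMIs over all gated cells, Cox8b 1, Cox8c 9 and Cox7b2 65. The limit of detection does not allow their levels to be compared.

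**Figure D4:**
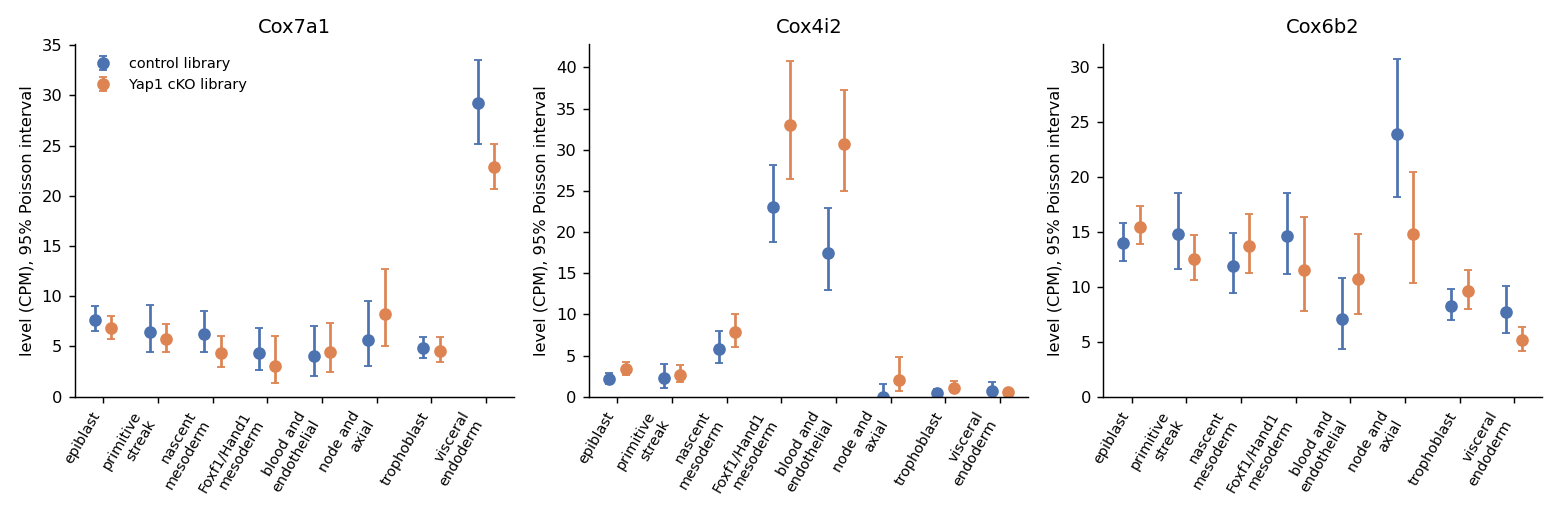
Level in CPM, on a linear axis from 0, of Cox7a1, Cox4i2 and Cox6b2 by population, with 1 point per library and exact 95% Poisson intervals. Cox7a1 is highest in endoderm-like cells (29.2 and 22.9 CPM), and Cox4i2 is highest in the Foxf1 and Hand1 mesoderm-like (23.1 and 33.0 CPM) and blood and endothelial progenitor-like cells (17.5 and 30.7 CPM). Cox6b2 is lowest in the cKO endoderm-like cells at 5.19 CPM.

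In complex V, 12 of 17 nuclear genes were higher and 0 lower, with a median of 0.32. Among the genes of the proton-conducting c-ring, which encode the same mature protein, Atp5g3 was higher at 598 and 717 CPM against 374–516 CPM (log2 difference 0.68 ± 0.06, edgeR adjusted p = 5.4e-09), and Atp5g1 at 905 and 1111 CPM against 635–889 CPM (0.52 ± 0.06). Atp5g2, with 975 and 1200 CPM inside the embryonic 1023–1403 CPM or just below it, was not called (-0.01 ± 0.05). Atp5md, a small membrane subunit, was higher at 811 and 910 CPM against 568–672 CPM (0.62 ± 0.07). In the catalytic F1 head 3 of 5 genes were higher, with a median of 0.12, where 36.3% of all genes were higher and 33.3% lower. Atp5b, the catalytic beta subunit, stood at 528 and 485 CPM against 535–694 CPM (-0.10 ± 0.06, adjusted p = 0.13), below every embryonic value. Atp5c1, the central stalk, differed by -0.08 ± 0.07 (adjusted p = 0.33).

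Coding length separated the nuclear members, a property the symbol rule did not use. All 21 tested members of at most 300 coding bases were higher in endoderm-like cells, with a median log2 difference of 0.50. Cox6a2, Cox7b2, Cox8b and Cox8c are also of this length but failed the filter on low counts. Of 38 members with more than 300 and up to 600 bases 30 were higher and 4 lower, with a median of 0.43. Of the 20 longer members 6 were higher and 1 lower, with a median of 0.08. Over all genes tested 36.3% were higher and 33.3% lower. This share was not split by coding length, so whether other genes of like length differ in the same way was not tested. Across the 79 genes the difference and the coding length had a Spearman correlation of -0.44 and, on log2 length, a Pearson correlation of -0.29. Genes are not independent replicates, and length goes together with role, as core and catalytic subunits such as Sdha and Atp5b are among the longer members. The Spearman correlation with the mean level was 0.13.

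Against trophoblast-like cells, the other extraembryonic lineage, 51 of 92 members were higher in endoderm-like cells, 7 lower and 34 not called in the main fit. Counted as UMIs per cell, 15 were higher and 44 lower, close to the shares of all genes on that scale, 18.8% and 45.9%. Among all genes 33.1% were higher and 29.4% lower on the main scale, with a median of 0.05 that moved to -0.43 per cell. Trophoblast-like cells held more UMIs, with medians of 84348 and 99856 and means of 94869 and 120474. The nuclear members had a median log2 difference of 0.18, which turned to -0.31 per cell. Relative to the median of all genes it was 0.13 on both scales, which had to agree because the change of scale shifts all genes nearly alike. The mt-encoded members had a median of 1.01, 0.53 per cell. On the main scale 12 of 13 were higher, and mt-Nd6 was the member not called (0.02 ± 0.14). Per cell 9 were higher and 1 lower.

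Named members ranged widely between these lineages. Sdhc was lowest in trophoblast-like cells of all populations, at 22.1 and 23.9 CPM, and endoderm-like cells stood 2.37-fold above them (edgeR adjusted p = 1.0e-09). Uqcrq (1.03 ± 0.07), Ndufb11 (0.92 ± 0.07) and Ndufb6 (0.88 ± 0.08) were higher in endoderm-like cells here as well. The 7 members lower in endoderm-like cells were Ndufa12 (-0.60 ± 0.08), Atp5c1 (-0.59 ± 0.09), Uqcrfs1 (-0.45 ± 0.08), Ndufc2 (-0.37 ± 0.06), Ndufs3 (-0.36 ± 0.08), Ndufa7 (-0.23 ± 0.07) and Cox6c (-0.22 ± 0.08). Ndufa12 sits at the joint of the complex I arms and stood at 206 and 230 CPM in trophoblast-like against 139 and 148 CPM in endoderm-like cells. Ndufa12, Ndufc2, Ndufs3, Cox6c and Ndufa7 were named because the count was small, after their values were seen.

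Trophoblast-like cells themselves stood above the embryonic populations in 55 of 92 members and below in 9. Among all genes 33% were higher and 29.9% lower. Counted as UMIs per cell, 78 members were higher and 3 lower, beside 41.6% and 21.8% of all genes, and the nuclear median was 0.38. On the main scale the median log2 difference was 0.17 over the nuclear and 0.24 over the mt-encoded members, of which 8 of 13 were called. Cox4i1 (0.70 ± 0.06), mt-Co2 (0.60 ± 0.06) and Ndufa12 (0.57 ± 0.06) were among those higher, and Cox4i2 (-2.75 ± 0.36), Sdhc (-0.67 ± 0.08) and Ndufs4 (-0.43 ± 0.06) among those lower.

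Other mitochondrial genes were counted by list in the endoderm-like cells against the embryonic populations. Among all genes 36.3% were higher and 33.3% lower in this contrast. Of 14 fatty acid oxidation genes, which feed electrons to the chain, 12 were higher and 1 lower, with a median log2 difference of 0.94. Hadh differed by 1.88 ± 0.06, Acadm by 1.35 ± 0.07 and Etfdh, which hands electrons to ubiquinone, by 1.33 ± 0.15, while Echs1 was lower (-0.81 ± 0.08). The citric acid cycle had 6 of 13 higher and 1 lower with a median of 0.09, led by Ogdh (1.18 ± 0.07). Among assembly factors, 10 of 18 for complex IV were higher and 0 lower (median 0.34), with Cox14 at 1.58 ± 0.07, the copper chaperone Cox17 at 1.14 ± 0.06 and Surf1 at 1.06 ± 0.08. For complex I, 5 of 14 were higher and 3 lower (median 0.12). For complex II, 2 of 4 and for complex III 3 of 6 were higher and 0 lower, with Ttc19 at 1.32 ± 0.08. The complex V list had 1 of 4 higher, the ATPase inhibitor Atpif1 (0.83 ± 0.05), which stood at 958 and 957 CPM against 404 and 413 CPM in trophoblast-like cells.

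Genes that regulate or copy the mitochondrial genome moved in both directions, with 5 of 16 higher, 5 lower and a median of -0.09. These counts were near the shares of all genes, 36.3% higher and 33.3% lower, so the list as a whole did not stand out. The mtDNA polymerase Polg (2.51 ± 0.10), the coactivator Ppargc1b (2.38 ± 0.21), its partner receptor Esrra (2.36 ± 0.12), the mt-mRNA stability factor Lrpprc (0.83 ± 0.06) and Pprc1 (0.27 ± 0.09) were higher. Ssbp1 (-0.54 ± 0.07), Mterf4 (-0.58 ± 0.10), Nrf1 (-0.45 ± 0.07), Twnk (-0.32 ± 0.10) and the mtDNA packaging factor Tfam (-0.29 ± 0.07) were lower. Ppargc1a was too low to test. Of 9 carriers and channels 5 were higher and 1 lower, with the ADP/ATP carrier Slc25a4 at 2.01 ± 0.06. In trophoblast-like cells Slc25a4 stood at 1054 and 1201 CPM beside 1024 and 993 CPM in endoderm-like and 238 and 227 CPM in pooled embryonic cells, and endoderm-like and trophoblast-like cells differed by -0.16 ± 0.09 (edgeR adjusted p = 0.16). Of 78 mitochondrial ribosomal protein genes 40 were higher and 14 lower than in the embryonic populations (median 0.16). Against trophoblast-like cells 13 were higher and 36 lower (median -0.16), where 33.1% of all genes were higher and 29.4% lower.

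Between genotypes 1 library stood against 1 library, so ratios of cKO over control are given with exact conditional binomial intervals, and no test was possible. Most members with at least 100 UMIs stayed within a ratio of 5 to 4 in either direction. In epiblast-like cells 2 of 92 were higher and 3 lower, where 4.97% of all genes were higher and 7.77% lower. In trophoblast-like cells 1 of 91 was higher and 5 lower (4.45% and 7.95% of all genes). In endoderm-like cells 1 of 91 was higher and 5 lower (7.6% and 10.3%). Primitive streak-like cells had 6 of 90 higher and 2 lower (524 and 1232 of 9122 genes). Foxf1 and Hand1 mesoderm-like cells had 6 of 90 higher and 2 lower (580 and 993 of 7045). Node and axial-like cells had 9 of 89 higher and 4 lower (450 and 1232 of 6096). Nascent mesoderm-like cells had 2 of 90 each way (574 and 619 of 8792). Blood and endothelial progenitor-like cells had 2 of 90 higher and 1 lower (923 and 595 of 6696). The summed nuclear level was 1.06 times control in epiblast-like, 1.07 in trophoblast-like and 1.05 in endoderm-like cells. Member by member, 54 of 79 nuclear genes were above 1 in epiblast-like (median ratio 1.06) and 62 of 78 in trophoblast-like cells (1.08). In endoderm-like cells 39 of 78 were above 1, with a median ratio of 1.0. Over all genes with at least 100 UMIs the median ratio was 0.974 in epiblast-like, 0.969 in trophoblast-like and 0.985 in endoderm-like cells. A ratio of 1 is therefore not the neutral point, and the share of all genes above 1 was not counted. Among Y-bearing cells alone the endoderm-like ratio of the nuclear sum turned to 0.904.

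The mt-encoded sum differed in direction between lineages. It was 0.949 times control (0.943–0.956) in epiblast-like cells and 0.891 (0.884–0.899) in trophoblast-like cells, with 0 of 13 members above 1 in either. In endoderm-like cells it was 1.12 (1.12–1.13), with 7 of 13 above 1. The sum was also above control in primitive streak-like (1.02, 1.01–1.03) and blood and endothelial progenitor-like cells (1.04, 1.02–1.06). It was 0.999 in nascent mesoderm-like, 1.0 in node and axial-like and 0.917 (0.9–0.934) in Foxf1 and Hand1 mesoderm-like cells. A sum above control was thus not particular to the endoderm-like cells. The median ratios of all genes given above, slightly under 1, apply to these counts as well. In Y-bearing cells the endoderm-like ratio was 0.908, from 30 control and 19 cKO cells, and the epiblast-like ratio 1.0. In Xist-bearing cells the trophoblast-like ratio was 1.01. The direction was thus not the same in every sex-linked split of these lineages.

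mt-Atp8 was the only member past this ratio in the same direction in all 3 populations. Its level in epiblast-like cells was 111 CPM in control and 74.5 CPM in cKO, a ratio of 0.673 (0.630–0.719). In trophoblast-like cells it was 102 and 64.6 CPM (0.635, 0.582–0.691) and in endoderm-like cells 185 and 145 CPM (0.783, 0.732–0.839). It was below 1 in all 8 populations, from 0.635 to 0.869, and in both sex-linked splits of these 3. The interval reached 1.02 in Foxf1 and Hand1 mesoderm-like, 1.04 in blood and endothelial progenitor-like and 1.07 in Y-bearing endoderm-like cells. mt-Atp6, which shares the transcript and the printed 43 bases, had ratios of 0.989, 0.972 and 1.13. On this transcript mt-Atp8 lies before mt-Atp6, while the libraries read transcript ends. How well mt-Atp8 was captured was not tested. A ratio below 1 in all 8 populations was not particular to mt-Atp8. It also held for mt-Nd6, with 0.747 in epiblast-like, 0.576 in trophoblast-like and 0.941 in endoderm-like cells. For mt-Nd4l these ratios were 0.794, 0.688 and 0.925, beside 0.959, 0.951 and 1.21 for mt-Nd4, whose start it overlaps. The nuclear members Atp5k (0.829–0.878), Ndufa3 (0.8–0.897), Sdha (0.848–0.986) and Atp5mpl (0.885–0.99) were below 1 in all 8 as well. So were mt-Nd3 (0.799–0.986) and mt-Nd5 (0.773–0.986). The share of all genes below 1 in all 8 was not counted. Yap1 itself stood at 24.9 CPM in control and 18.5 CPM in cKO trophoblast-like cells, and at 32.4 and 26.6 CPM in endoderm-like cells. Whether the mt-Atp8 ratio depends on Yap1 was not tested.

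**Figure D5:**
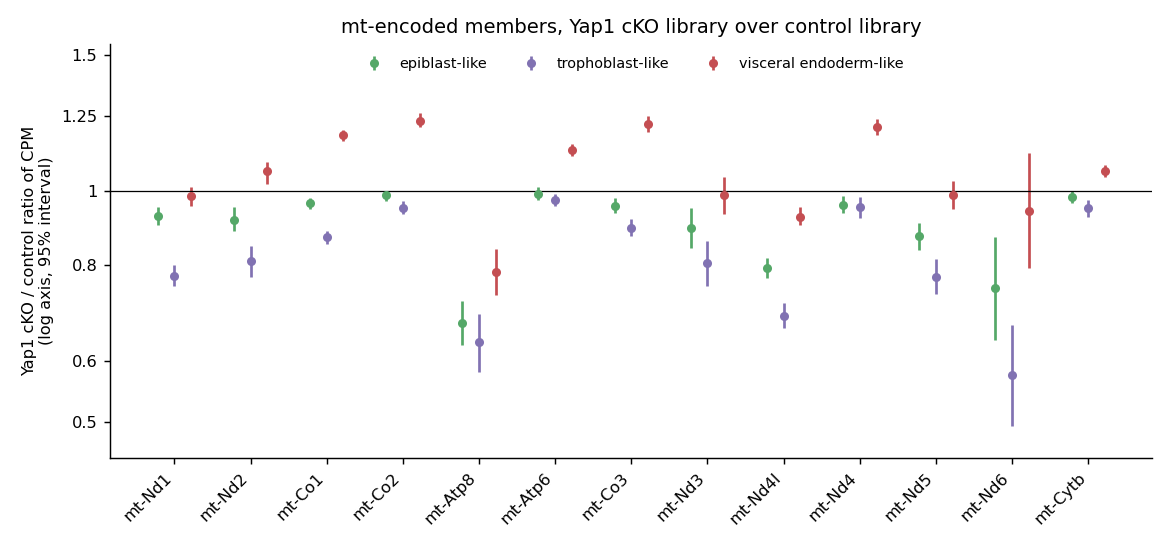
Ratio of cKO over control level for each mt-encoded gene in epiblast-like, trophoblast-like and endoderm-like cells, on a log axis with exact 95% intervals for counting error and 1 library per genotype. mt-Atp8 lies at 0.673, 0.635 and 0.783. The summed ratios turn direction in some splits by sex-linked transcripts.

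In endoderm-like cells the highest ratios belonged to Cox8a (1.26, 1.23–1.29), mt-Co2 (1.23, 1.21–1.26) and Atp5g2 (1.23, 1.20–1.26), and the lowest to Cox6b2 (0.671, 0.473–0.962), Ndufa9 (0.778, 0.696–0.871) and mt-Atp8. Cox8a was above 1 in all 8 populations, from 1.09 to 1.40, but was 0.951 (0.900–1.0) in Y-bearing endoderm-like cells. Cox7a1 was at 0.784 (0.659–0.935) in endoderm-like cells. In epiblast-like cells Cox4i2 had a ratio of 1.57 (1.05–2.36) from low counts and Ndufs8, a core subunit of complex I, 1.26 (1.19–1.34). Over the pooled embryonic populations Ndufb8 stood at 1.3 (1.27–1.32) and Ndufv1 at 1.27 (1.21–1.32). There mt-Nd6 stood at 0.682 (0.621–0.748) and mt-Atp8 at 0.703 (0.673–0.735).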

How the data were processed

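Freshly isolated E7 embryos were pooled by genotype and profiled with 10x 3' chemistry, which reads transcript ends, 1 library each. The deposited matrices hold raw UMI counts per gene and barcode, which the authors made with Cell Ranger 7.1.0 on mm10 per the labels' processing notes; that version counts intronic reads by default and only the sense strand. The authors' ambient RNA correction with SoupX and their cell annotation were not used here. Free RNA was therefore not removed, and reads shared with near-identical pseudogene copies are uncertain. A copy with a -ps name is annotated for 4 nuclear members. Copies under other names were not counted, and similarity was not measured.

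Barcodes with at least 5000 genes and at most 10% mt-encoded UMIs were kept, and doublets called by scanpy 1.11.5 (scrublet) were removed. Cells were gated by summed marker CPM with thresholds set after seeing the files (endoderm 1500 CPM, trophoblast 400, epiblast 1000, others in between or lower). Embryonic gates required under 200 CPM of endoderm and under 400 CPM of trophoblast markers, whereas epiblast markers did not bar a cell from the trophoblast gate. Among embryonic gates the order was node, blood, Foxf1 and Hand1, nascent, streak, epiblast, and the first one met was taken. Cells that met none were left ungated (6 control and 7 cKO). Counts were summed per population and library and fitted with edgeR 4.0.16 in R 4.3.3 (filterByExpr, TMM, quasi-likelihood test, terms for population and library), with Benjamini-Hochberg adjustment over 14608 genes. DESeq2 1.42.0 was an alternative. The script was tested on simulated data. The members and lists were chosen with earlier results of these data known, so their patterns are not independent support. Named were all mt-encoded members, the 2 largest and 2 smallest differences of each nuclear complex, fixed isoform pairs and, between genotypes, members past a ratio of 5 to 4 alike in 3 populations and the 3 highest and lowest endoderm ratios. Others were named after their values were seen. Removing cells under 0.2% mt-encoded UMIs and leaving ribosomal genes out of library sizes were chosen after seeing the data. Intervals are 95% and exact. Gene positions and coding lengths are from the GENCODE annotation of GRCm38 (mm10), and promoter sequences from RefSeq on GRCm38.p6. Nothing in the labels pairs the samples.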

Additional observations from a re-analysis of the deposited data

Results flagged for a closer look

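The summed mt-encoded level of cKO over control differed in direction between populations. It was 1.12 in visceral endoderm-like cells and 0.949 and 0.891 in epiblast-like and trophoblast-like cells. Primitive streak-like and blood and endothelial progenitor-like cells had 1.02 and 1.04. With 1 library per genotype the difference between populations was not tested, and it did not keep its direction in every sex-linked split.

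Barcodes with at least 2000 but under 5000 genes, which entered no comparison of the main fit, also carried mt-encoded UMIs when they passed the endoderm gate. Over 62 such control barcodes these were 1.11% of UMIs and over 156 cKO barcodes 0.906%. The medians per barcode were 0.108% and 0.0533%, so that a minority of barcodes held most of them, and the median Malat1 level was 0 CPM in both.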

How the results depend on the processing

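No paired analysis was possible because each genotype has 1 library and the only shared replicate label is its number. Counting UMIs per cell moved most. Endoderm against embryonic populations then had 43 members higher and 15 lower, with medians of 0.13 (nuclear) and 0.94 (mt-encoded). Endoderm against trophoblast had 15 higher and 44 lower, near the 18.8% and 45.9% of all genes, with medians of -0.31, reversed, and 0.53. Trophoblast against embryonic populations had 78 higher and 3 lower, with medians of 0.38 and 0.45. A total of 6 named genes reversed against trophoblast: Atp5g3 (-0.10), Cox6a1 (-0.22), Cox6b1 (-0.21), Cox5a (-0.03), Cox8a (-0.11) and Atp5md (-0.08). Summed endoderm ratios, control first, became 1.11 and 1.04 over embryonic and 0.879 and 0.756 over trophoblast (nuclear), and 1.28 and 1.42 over trophoblast and 1.93 over embryonic in cKO (mt-encoded). The cause was not tested beyond the larger UMI totals of trophoblast-like cells.

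With epiblast alone as comparator the medians were 0.35 and 1.04, and with per-cell mean CPM the nuclear median was 0.26. Doubled gates gave nuclear medians of 0.24 (endoderm against trophoblast) and 0.10 (trophoblast against embryonic), where DESeq2 and its size factors gave 0.16 and no filter 0.22. Single libraries gave 0.19–0.23 and 0.18–0.20 for these. The mt/nuclear ratio of cKO endoderm fell to 0.454 with at least 2000 genes. Leaving 50 genes out of the total gave 1.24 (control, over embryonic) and 1.18 and 1.15 over trophoblast.

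Between genotypes, scaling by the median ratio gave 2, 2 and 6 members higher in endoderm, trophoblast and epiblast, nuclear sums of 1.06, 1.10 and 1.09 and mt-encoded sums of 1.14, 0.92 and 0.975. A 1.5-fold limit left 0, 2 and 0 lower and 1 higher in epiblast, and a minimum of 20 UMIs gave 2 higher in trophoblast. Y-bearing cells gave nuclear sums of 0.904 (reversed), 1.08 and 1.15 and mt-encoded sums of 0.908 (reversed), 0.866 and 1.0 (reversed). Xist-bearing cells gave nuclear sums of 1.08, 1.06 and 1.03 and mt-encoded sums of 1.14 and 1.01 (reversed, trophoblast). Of the alternative values of named genes 1152 kept direction and side of the threshold, 41 gained the call, 19 lost it and 6 reversed, all 6 per cell. Depth limits Cox4i2 and Cox6b2 most.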

Other observations

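Among the kept cells 11 control and 16 cKO barcodes had under 0.2% mt-encoded UMIs, and 2 and 9 of these passed the endoderm gate. Their summed nuclear respiratory chain level was 30802 and 34184 CPM, close to the 28279 and 30701 CPM of the other kept cells, while their mt-encoded to nuclear ratio was 0.0158 and 0.0201 against 0.313 and 0.318. The nuclear RNA Malat1 had a median of 204 and 27.2 CPM in them and of 1606 and 1577 CPM in the others. The endoderm comparison without these barcodes, an alternative added after seeing the data, had 69 members higher and 5 lower.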
